A study of Mus musculus with 13 samples.

Results

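The genes of cholesterol and fatty acid synthesis were followed across normal crypts and adenomas of the mouse small intestine. The set was a list of 37 gene symbols covering the enzymes of both pathways, their main regulators and a sterol carrier. A gene was read on the probe set that carried its symbol and no other, and where several such probe sets existed on the one with the highest mean over all 13 arrays. On this basis 36 of the 37 genes were measured, out of 19938 genes with a probe set of their own, and Acat2 was not analysed here.

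RNA came from small intestinal epithelium and adenomas of Apc mutant mice crossed with transgenic mice that express FPs. Every group shared this cross, including both groups of normal epithelium, so no array represents mice without the Apc mutation. Apc restrains Wnt signalling, and its loss starts intestinal adenomas in mice. The normal epithelium lay beside adenomas and was split by FP expression into FP-high (n = 4) and FP-low (n = 6), and adenomas formed the remaining group (n = 3). The labels do not spell out FP, the Apc allele, the promoter behind the transgene, or the age or sex of the mice. Crypts were collected with glass capillaries, and their RNA was amplified and hybridised to Affymetrix Mouse Gene 1.0 ST arrays. Whether several arrays came from 1 mouse is not stated in the labels, so p-values measure only how far these samples spread, and some of that spread may be technical. The title of the series frames the FP-high and FP-low comparison as a search for changes that come before tumours. All levels are log2 values as deposited, so a difference of 1.00 is a doubling.

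Cells build cholesterol from acetyl-CoA through mevalonate, farnesyl diphosphate and squalene, and fatty acids from acetyl-CoA through malonyl-CoA, followed by elongation and desaturation. When membranes hold little sterol, SCAP escorts SREBP proteins from the endoplasmic reticulum to the Golgi for cleavage, and the freed fragments switch on most genes of both pathways. INSIG proteins hold SCAP back when sterol is plentiful. In the intestine the dividing cells of the crypt make much of their own sterol, while absorptive cells of the villus also take up lipid from food.

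SREBP proteins bind sterol elements and E-boxes in promoters, usually next to sites for NF-Y (CCAAT box) or Sp1 (GC box). Sequences near gene starts were available from RefSeq (GRCm38.p6) for 29 of the 36 genes, in 39 windows of 300 bases that ran from 250 bases before to 50 bases after a start. The 3 shown here are those of Hmgcs1, the entry enzyme of the branch to mevalonate, and of Cyp51 and Hsd17b7, the sterol enzymes that passed the test in adenomas below. Each is the 250 bases before the start, written in the direction of the gene, with capitals marking matches on either strand to the sterol element TCACNCCAC, the E-box CACGTG, the CCAAT box CCAAT and the GC box GGGCGG. Hmgcs1 lies at chr13:119690101-119690350 on the plus strand, Cyp51 at chr5:4104698-4104947 on the minus strand and Hsd17b7 at chr1:169969206-169969455 on the minus strand.
Hmgcs1: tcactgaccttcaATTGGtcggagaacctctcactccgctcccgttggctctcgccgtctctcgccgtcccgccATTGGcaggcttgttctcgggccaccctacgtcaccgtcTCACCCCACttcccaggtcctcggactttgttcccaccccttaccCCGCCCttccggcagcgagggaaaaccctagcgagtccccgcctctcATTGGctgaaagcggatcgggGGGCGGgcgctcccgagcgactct
Cyp51: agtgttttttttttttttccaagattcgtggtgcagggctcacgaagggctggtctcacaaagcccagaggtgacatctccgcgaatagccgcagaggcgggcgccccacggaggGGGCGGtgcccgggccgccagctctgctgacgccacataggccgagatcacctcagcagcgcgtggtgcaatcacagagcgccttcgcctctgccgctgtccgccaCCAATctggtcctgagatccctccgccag
Hsd17b7: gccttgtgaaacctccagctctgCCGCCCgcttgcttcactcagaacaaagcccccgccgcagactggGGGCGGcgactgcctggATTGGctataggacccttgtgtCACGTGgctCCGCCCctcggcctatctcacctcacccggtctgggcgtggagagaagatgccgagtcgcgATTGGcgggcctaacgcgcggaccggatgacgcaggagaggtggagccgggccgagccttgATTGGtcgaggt

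Within the full 300 bases the Hmgcs1 window held 1 sterol element, 4 CCAAT boxes and 3 GC boxes. The Cyp51 window held 1 CCAAT box and 1 GC box, and the Hsd17b7 window held 1 E-box, 3 CCAAT boxes and 3 GC boxes. Over the 39 windows of the set, 66.7% held a CCAAT box and 71.8% a GC box, against 37.4% and 35.7% of all 32851 windows of the same length. An E-box was found in 17.9% of the windows of the set and in 7.15% of all windows. Overlapping windows of Scap shared the same E-box and a GC box. By gene, 6 of 29 in the set and 2187 of 27025 in all held an E-box. The sterol element in this strict spelling was found in 1 window of the set (2.56%), that of Hmgcs1, and in 1.24% of all windows. Where 2 motifs overlapped, each was counted. A match is a run of letters and does not show that a factor binds there.

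FP-high replicate 1 was unlike the other arrays. Across the 23410 tested probe sets the SD of its values was 1.21, where the other 12 arrays had 1.89 to 2.10, and it held 362 probe sets above a log2 level of 9, where the others held 1091 to 1320. Results that rest on it are therefore given with and without it. Xist, the RNA of the inactive X chromosome, was high in all 3 adenoma arrays, FP-high replicate 4 and FP-low replicate 6 (8.64 to 9.71) and low in the other 8 arrays (2.34 to 3.61). The labelled tissue was checked with 10 epithelial markers such as Epcam and Cdh1, whose mean level per array was 8.01 to 8.86 in FP-low, 8.17 to 8.87 in adenomas and 8.37 to 8.97 in FP-high replicates 2 to 4, and 6.11 in FP-high replicate 1.

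**Figure D1:**
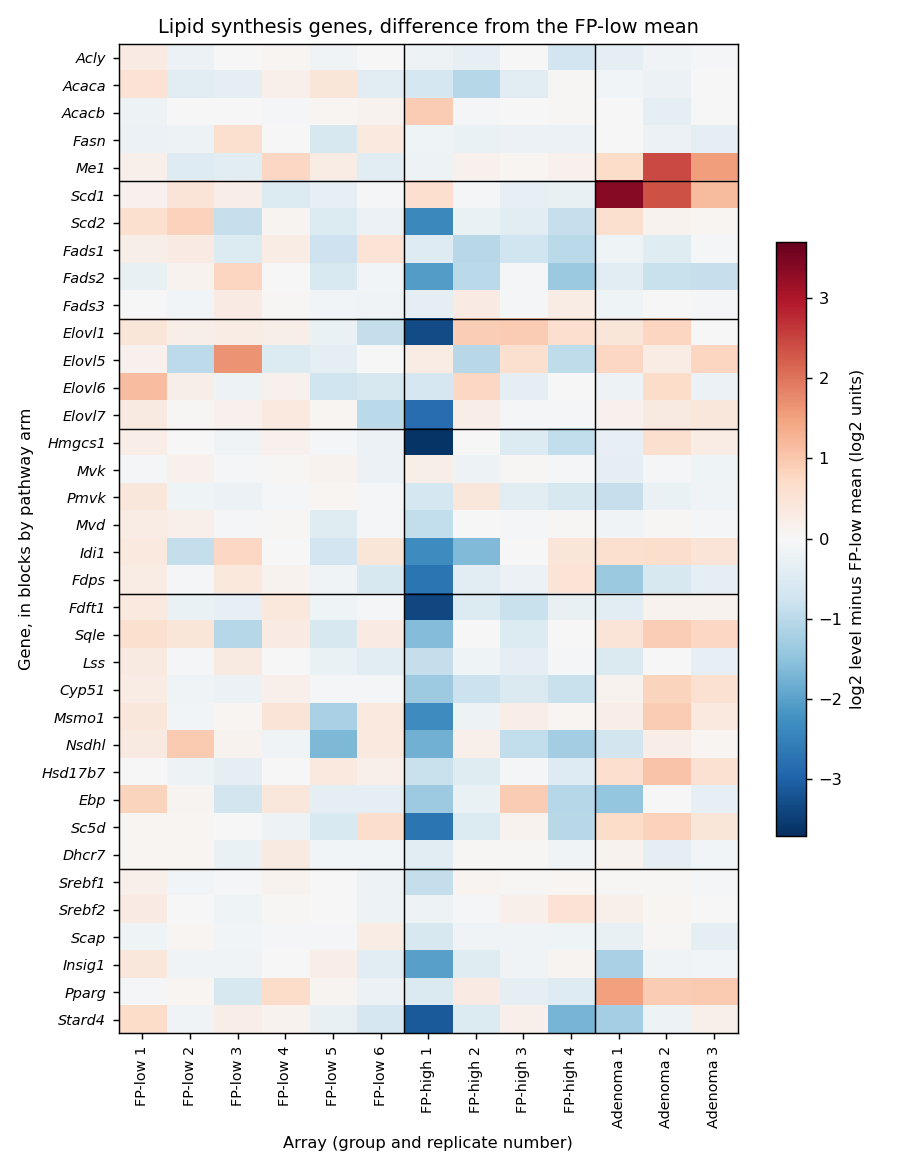
Colour shows the log2 level of each of the 36 genes (rows, in blocks by pathway arm) in each of the 13 arrays (columns), minus that gene's FP-low mean; red is higher and blue lower. Scd1 and Me1 are red in the adenoma columns. The FP-high replicate 1 column is the bluest, mainly in the block of elongases (mean -1.62) and the blocks of sterol enzymes (means -1.66 and -1.66).

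Between FP-high and FP-low normal epithelium, most lipid synthesis genes were lower on average in FP-high samples, and no single gene passed the test. Of the 36 genes 32 were lower and 4 higher, with a median log2 difference of -0.40, against a median of 0.05 and 56.3% higher over all tested probe sets. Without FP-high replicate 1 the counts were 26 lower and 10 higher and the median was -0.19. None of the 36 passed an adjusted p of 0.05 (limma), and of all tested probe sets 0.00% passed. At an unadjusted p under 0.05, 9 of the 36 were lower and 0 higher, where 7.95% of all probe sets were lower and 4.78% higher. These counts were 4 lower and 1 higher without FP-high replicate 1, beside 4.84% and 3.69%. In samples of tissue, fewer cells of a type and less RNA per cell cannot be told apart.

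**Figure D2:**
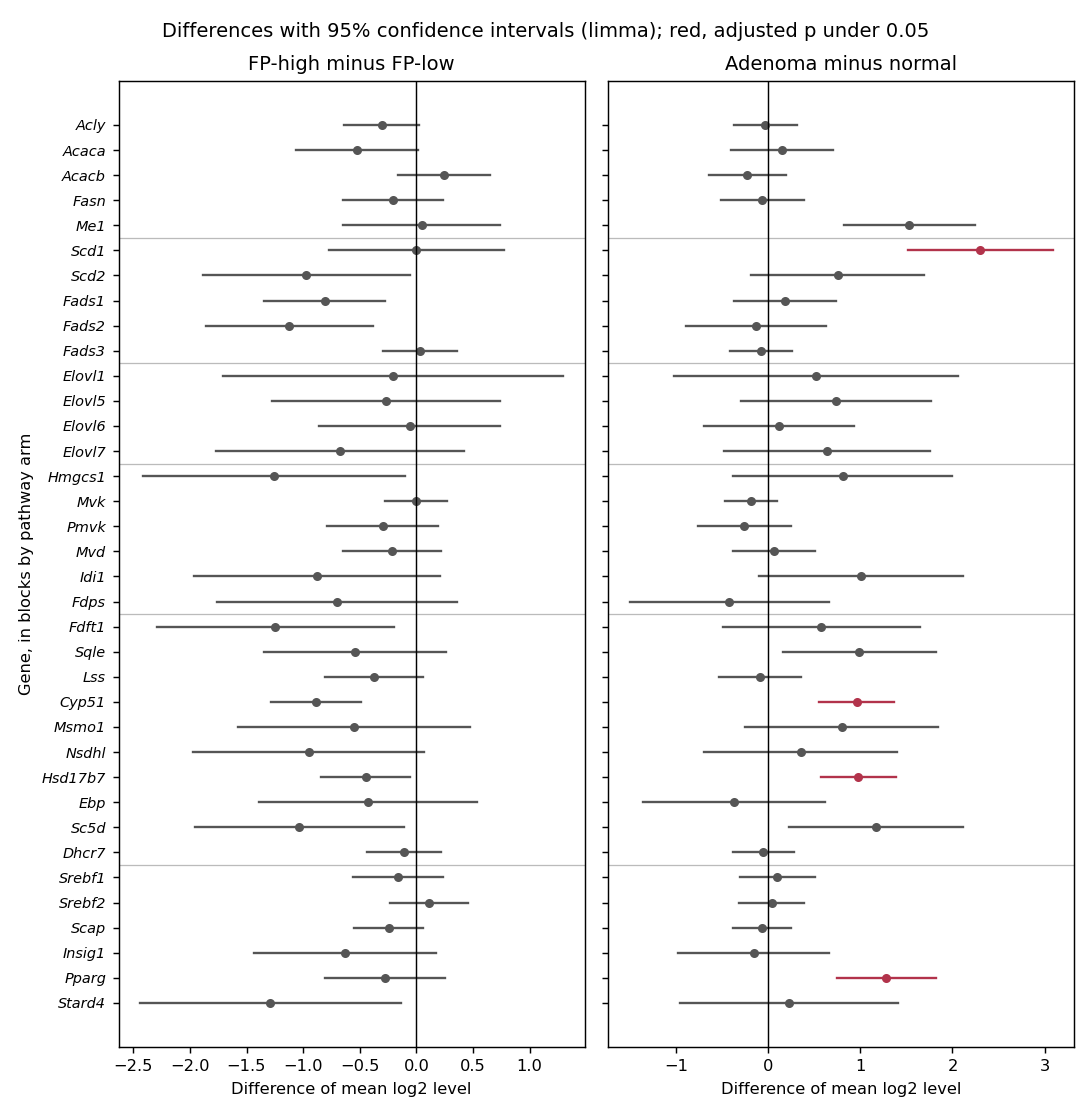
Points are differences of mean log2 level and bars 95% confidence intervals from limma for each gene (rows), FP-high minus FP-low on the left and adenoma minus the normal average on the right. On the left most points lie left of the line at 0 and none is red; on the right the red points, with an adjusted p under 0.05, are Scd1, Cyp51, Hsd17b7 and Pparg.

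Among the regulators, those for the SREBP proteins had small differences between the normal groups. Srebf2, whose product mainly drives sterol genes, differed by 0.11 ± 0.16 (SE), and Srebf1, whose product mainly drives fatty acid genes, by -0.17 ± 0.18. Scap differed by -0.25 ± 0.14, Insig1 by -0.63 ± 0.37 and Pparg, a nuclear receptor of lipid storage, by -0.28 ± 0.24. Stard4, a carrier that moves cholesterol between membranes, was measured at 4.47, 7.07, 7.75 and 5.84 in FP-high replicates 1 to 4 and from 6.94 to 8.24 (median 7.56) in FP-low. Replicates 1 and 4 lay below every FP-low array, replicates 2 and 3 lay among them, and the groups overlapped. The difference was -1.29 ± 0.53 (adjusted p = 0.389), or -0.69 without FP-high replicate 1.

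The 6 measured enzymes from acetyl-CoA to farnesyl diphosphate all had a lower mean in FP-high, with a median of -0.50, which shrank to -0.13 without FP-high replicate 1. Hmgcs1, which makes HMG-CoA, was at 4.23, 7.88, 7.35 and 6.94 in FP-high and at 7.63 to 8.09 (median 7.83) in FP-low. Its FP-low arrays lay close together, FP-high replicate 1 was far below them, replicates 3 and 4 moderately below and replicate 2 within their range. The difference of -1.26 ± 0.53 (adjusted p = 0.390) became -0.47 without replicate 1. Idi1, the isomerase of isopentenyl diphosphate, differed by -0.88 ± 0.50 and Fdps, which makes farnesyl diphosphate, by -0.70 ± 0.49, and without replicate 1 these values were -0.39 and -0.03. The kinases Mvk and Pmvk and the decarboxylase Mvd lay between -0.30 and 0.00.

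All 10 enzymes from squalene to cholesterol were lower on average in FP-high, with a median of -0.55. This held for 9 of 10 without FP-high replicate 1, where the median was -0.26. Cyp51, the demethylase of lanosterol, was at 5.55, 6.10, 6.36 and 6.07 in FP-high and at 6.69 to 7.19 (median 6.85) in FP-low. Every FP-high array lay below every FP-low array, which was true of no other gene of the set and of 1.51% of all probe sets (1.81% without FP-high replicate 1, where Cyp51 was again the 1 gene). The difference was -0.88 ± 0.18 (unadjusted p = 0.000359, adjusted p = 0.149) and -0.73 without FP-high replicate 1 (adjusted p = 0.227). When FP-high replicate 3 was left out instead, the adjusted p was 0.0456. Fdft1, the squalene synthase, differed by -1.25 ± 0.48, Sc5d, a sterol desaturase, by -1.03 ± 0.43 and Nsdhl, a sterol dehydrogenase, by -0.95 ± 0.47. Without replicate 1 these values were -0.53, -0.47 and -0.67. A second probe set for Fdft1 gave -1.01 ± 0.35. The others ran from -0.55 (Msmo1, a sterol oxidase) to -0.11 (Dhcr7, the last reductase of the pathway).

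Marker lists of several cell types are given beside these values, and no marker gene passed the test between the normal groups. All 11 measured markers of dividing cells, such as Mki67 and Top2a, were lower on average in FP-high, and none passed the test. Their median was -1.23, or -0.97 when FP-high replicate 1 was left out. The mean level of that list was 7.20 to 7.69 in FP-low, 5.63 to 7.01 in FP-high and 6.93 to 7.35 in adenomas. Its part in the lower sterol gene levels was not tested. The 10 measured enterocyte markers such as Alpi and Fabp1 all had a higher mean in FP-high, with a median of 0.81, or 1.54 when replicate 1 was left out, and their list means of 6.73 to 10.4 in FP-high and 6.51 to 9.12 in FP-low overlapped. All 6 T cell markers had a higher mean in FP-high, with a median of 0.36 and list means of 4.38 to 5.37 against 4.01 to 4.64 in FP-low. Of 5 goblet cell markers 4 were lower with all arrays (median -0.61) and 4 higher once replicate 1 was left out (median 0.62). The part of these cell types in the result was likewise not tested.

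**Figure D3:**
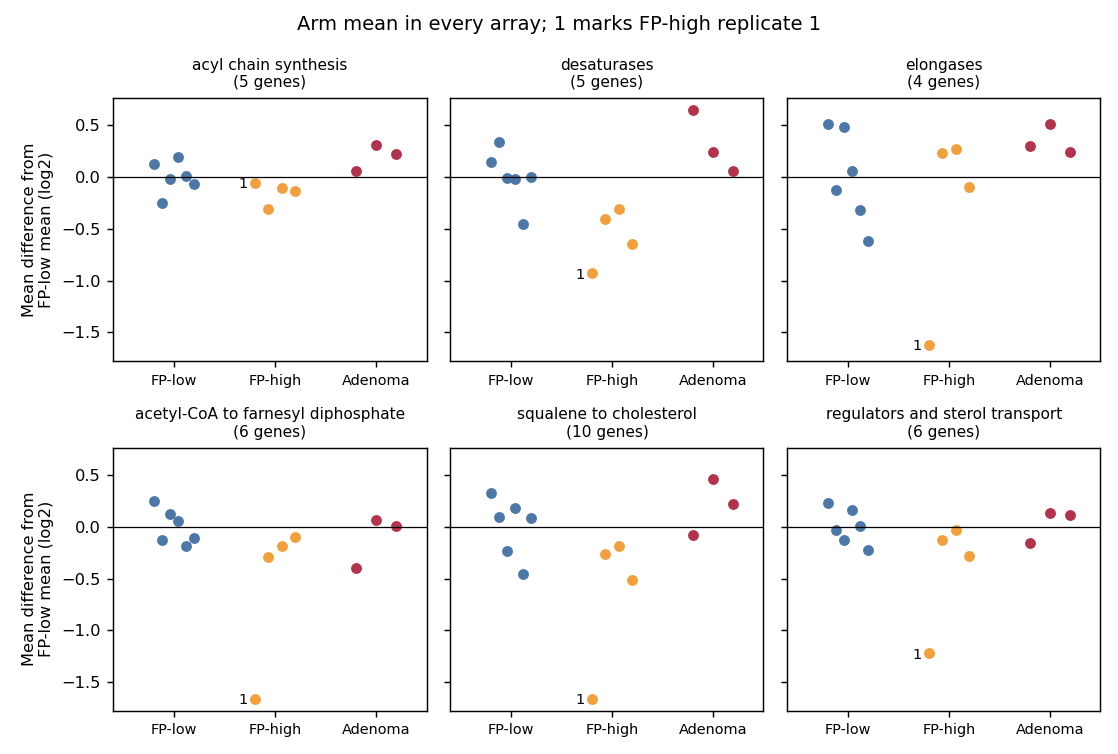
Each dot is 1 array and shows the mean over the genes of a pathway arm after each gene was centred on its FP-low mean, in log2 units, by group; the digit 1 marks FP-high replicate 1. In the arm from squalene to cholesterol the FP-high arrays sit between -1.66 and -0.18 and the adenomas between -0.08 and 0.46; in 5 of the 6 arms FP-high replicate 1 is the lowest array.

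On the fatty acid side, the genes that make the acyl chain differed little between the normal groups. Fasn, the fatty acid synthase, differed by -0.21 ± 0.20, Acly, which supplies cytosolic acetyl-CoA, by -0.31 ± 0.15 and Me1, an enzyme that supplies NADPH, by 0.05 ± 0.32. Acaca, the cytosolic acetyl-CoA carboxylase, was at 5.46, 5.05, 5.70 and 6.17 in FP-high and at 5.71 to 6.65 (median 6.04) in FP-low. The groups overlapped through FP-high replicate 4, and the difference was -0.52 ± 0.25 (adjusted p = 0.392). A second, dimmer probe set for Acaca gave 0.45 ± 0.38, so the probe sets disagreed in sign. Acacb, the carboxylase at mitochondria, was at 5.69 in FP-high replicate 1 and at 4.67 to 4.79 in the other FP-high arrays, and its difference of 0.24 ± 0.19 was 0.0026 without replicate 1.

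Of the 5 desaturases, 4 were lower on average in FP-high and none passed the test. Fads2, which catalyses the first step from dietary polyunsaturated fatty acids, was at 5.19, 6.24, 7.20 and 5.86 in FP-high and at 6.68 to 8.04 (median 7.19) in FP-low. FP-high replicate 3 lay inside the FP-low range and the other FP-high arrays below it. The difference was -1.12 ± 0.34 (adjusted p = 0.291), -0.81 without FP-high replicate 1 and -1.48 without FP-high replicate 3, where the adjusted p was 0.0489. Fads1, which acts after Fads2, differed by -0.81 ± 0.25 (adjusted p = 0.292) and by -0.93 without replicate 1. Fads3, a relative of both, differed by 0.03 ± 0.15. Of the stearoyl-CoA desaturases, which make monounsaturated fatty acids, Scd2 differed by -0.97 ± 0.42 and Scd1 by -0.0012 ± 0.36.

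The elongases, which lengthen fatty acids, rested on FP-high replicate 1. With all arrays the 4 of them had a lower mean in FP-high, with a median of -0.24, and without that array 3 of 4 were higher, with a median of 0.08. Elovl7 was at 6.24, 9.32, 8.99 and 9.01 in FP-high and at 8.06 to 9.43 (median 9.19) in FP-low. FP-high replicate 1 was the lowest array and the other FP-high arrays lay among FP-low. The difference was -0.68 ± 0.51 (adjusted p = 0.486) and 0.04 without replicate 1. Elovl1 was at 4.17 in FP-high replicate 1 and at 8.12 to 8.42 in the other FP-high arrays, above the FP-low range of 6.59 to 7.92, so that its difference of -0.21 ± 0.69 became 0.83 (adjusted p = 0.408). Without replicate 1 it was the 1 gene of the set with all FP-high arrays above all FP-low arrays, beside 1.39% of all probe sets.

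**Figure D4:**
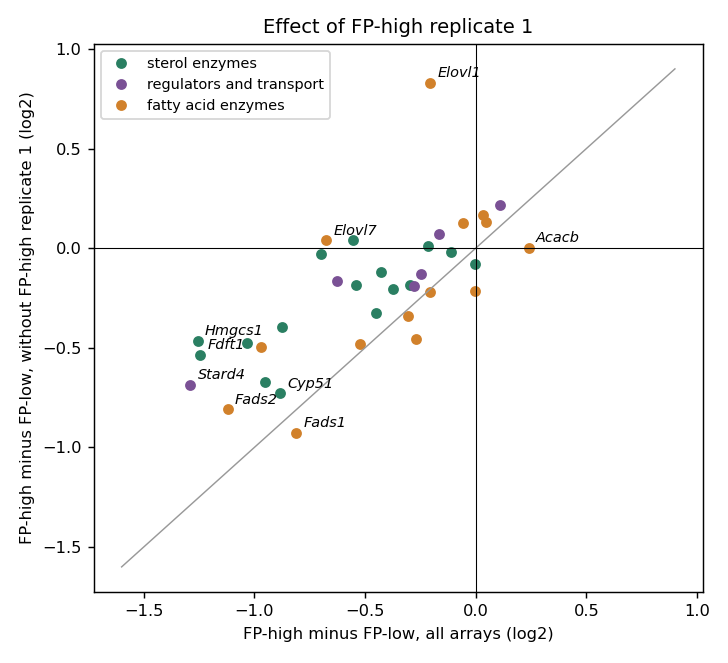
Each dot is a gene, with its FP-high minus FP-low difference (log2) from all arrays on the x axis and without FP-high replicate 1 on the y axis; the grey line marks equal values and colours the pathway. Most sterol genes lie above the line and closer to 0 on the y axis, while Fads1 and Cyp51 keep most of their difference and Elovl1 changes sign.

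In adenomas, 4 genes of the set rose against normal epithelium and none fell, but no call was left when the replicate number was fitted as a block. Scd1, Pparg, Cyp51 and Hsd17b7 passed an adjusted p of 0.05 upwards (limma), beside 0.884% of all tested probe sets, and 0 of 36 passed downwards, beside 0.0256%. In the blocked fit the differences were 2.11 for Scd1, 1.34 for Pparg, 0.98 for Cyp51 and 1.06 for Hsd17b7, with adjusted p = 0.0665, 0.182, 0.250 and 0.153. The labels give no sign that same-numbered arrays belong together, and Xist was high in the adenoma arrays but low in the same-numbered normal arrays. The blocked fit also estimates more terms from the same 13 arrays, so less is left to estimate spread. The normal level here is the midpoint between the FP-high mean and the FP-low mean. The remaining genes were not uniformly higher: 23 of 36 had a higher mean in adenomas and 13 a lower one, with a median of 0.16, against a median of -0.09 and 38.1% higher over all probe sets. Without FP-high replicate 1 the split was 18 to 18 with a median of 0.01, and the called genes were these 4 and Me1, beside 1.47% of all probe sets called upwards. Over all probe sets 207 were called higher and 6 lower in adenomas, and after quantile normalization 186 and 38. These counts were 344 and 144 without FP-high replicate 1.

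Scd1 had low values in every normal array. Its level was 6.72, 5.73 and 4.53 in adenoma replicates 1, 2 and 3, 3.99, 3.29, 3.06 and 3.08 in FP-high replicates 1 to 4, and 2.86 to 3.84 (median 3.40) in FP-low. Every adenoma array lay above every normal array, but the adenomas spread over more than 2 log2 units. The difference was 2.30 ± 0.37 (adjusted p = 0.00938). All 10 normal values lay below the array medians of 4.55 to 4.65, and adenoma replicate 3, at 4.535, also lay below its array median of 4.555. The table has no detection calls. Whether Scd1 was above background in normal epithelium or in that adenoma was therefore not tested, and no fold is given. Adjusted p was 0.0512 without adenoma replicate 1 and 0.0632 without adenoma replicate 2, where the differences were 1.77 and 2.27. Scd1 has close relatives in Scd2, Scd3 and Scd4, between which probes can be shared. In the same comparison Scd2 differed by 0.75 ± 0.43 (adjusted p = 0.550), Scd3 by 0.00068 ± 0.23 and Scd4 by -0.03 ± 0.19.

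Pparg was the regulator that stood out in adenomas. It was at 7.25, 6.66 and 6.70 in adenomas, at 5.18, 6.02, 5.35 and 5.23 in FP-high and at 5.12 to 6.40 (median 5.74) in FP-low. The adenomas lay above all 10 normal arrays, with a difference of 1.28 ± 0.25 (adjusted p = 0.0311) or 2.43-fold. With Scd1 and Hsd17b7 it was 1 of 3 genes of the set whose adenoma arrays all lay above all normal arrays, an order shown by 1.93% of all probe sets. The other regulators differed less: Srebf1 differed by 0.10 ± 0.19, Srebf2 by 0.04 ± 0.16, Scap by -0.07 ± 0.15, Insig1 by -0.16 ± 0.38 and Stard4 by 0.22 ± 0.55. Pparg is also a defining gene of fat cells. The 6 measured adipocyte markers, among them Adipoq and Plin1, had mean levels of 3.68 to 4.15 in adenomas, 3.65 to 4.46 in FP-high and 3.63 to 3.83 in FP-low, and none of them passed the test.

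**Figure D5:**
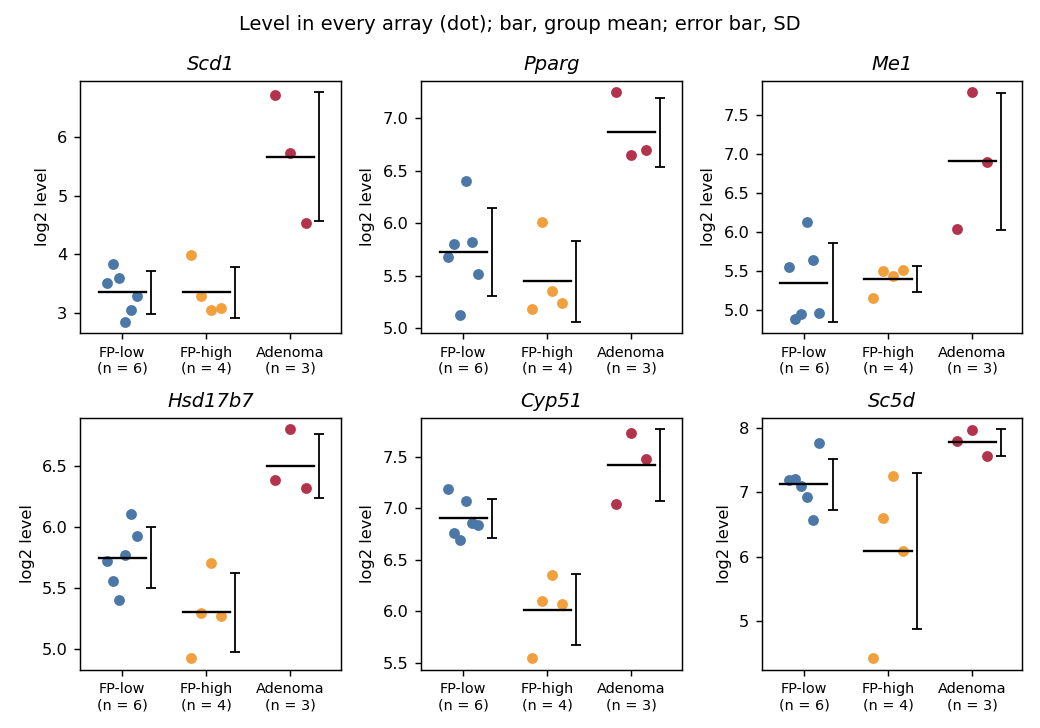
Each dot is the log2 level of a gene in 1 array, with a bar at the group mean and an error bar of 1 SD, for FP-low (n = 6), FP-high (n = 4) and adenoma (n = 3); the y axes do not start at 0. The adenoma dots of Scd1, Pparg and Hsd17b7 lie above all normal dots, and those of Me1, Cyp51 and Sc5d lie above all FP-high dots and overlap FP-low.

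The late sterol enzymes held the other 2 called genes. Cyp51 was at 7.04, 7.74 and 7.48 in adenomas, against 5.55 to 6.36 in FP-high and 6.69 to 7.19 in FP-low as listed above. Adenoma replicates 2 and 3 exceeded all normal arrays and replicate 1 lay inside the FP-low range. The difference was 0.96 ± 0.19 (adjusted p = 0.0325), or 1.94-fold. Hsd17b7, a reductase of sterol intermediates, was at 6.38, 6.80 and 6.32 in adenomas, at 4.92, 5.30, 5.71 and 5.27 in FP-high and at 5.40 to 6.11 (median 5.75) in FP-low. All adenomas lay above all normal arrays, with a difference of 0.98 ± 0.19 (adjusted p = 0.0287), or 1.97-fold. Of the 10 genes of this arm 7 had a higher mean in adenomas, with a median of 0.69, or 0.36 when FP-high replicate 1 was left out. Sc5d differed by 1.17 ± 0.44 (adjusted p = 0.352) and Sqle, the squalene epoxidase that limits flux through this arm, by 0.99 ± 0.38 (adjusted p = 0.372). Ebp, Lss and Dhcr7 had slightly lower means, at -0.37 ± 0.46, -0.09 ± 0.21 and -0.05 ± 0.15.

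The earlier sterol enzymes were split. Of 6 genes 3 had a higher and 3 a lower mean in adenomas, with a median of -0.06. Idi1 was at 7.57, 7.62 and 7.44 in adenomas, at 4.65, 5.34, 6.97 and 7.43 in FP-high and at 6.09 to 7.73 (median 7.16) in FP-low. The adenomas were tightly grouped above all FP-high arrays and inside the FP-low range, and the difference of 1.01 ± 0.51 (adjusted p = 0.511) was 0.77 without FP-high replicate 1. A second probe set for Idi1 gave 0.97 ± 0.57. Hmgcs1 was at 7.55, 8.44 and 8.12 in adenomas and differed by 0.81 ± 0.55, whereas Fdps, at 5.58, 6.37 and 6.61, differed by -0.42 ± 0.50. Without FP-high replicate 1 these values were 0.41 and -0.76.

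Me1 was the acyl chain gene with the largest difference in adenomas. It was at 6.04, 7.79 and 6.89 in adenomas, at 5.15, 5.50, 5.44 and 5.51 in FP-high and at 4.88 to 6.13 (median 5.26) in FP-low. Adenoma replicates 2 and 3 lay above all normal arrays and replicate 1 inside the FP-low range. The difference of 1.53 ± 0.33 narrowly missed the threshold (adjusted p = 0.0501). The adjusted p was 0.0452 with FP-high replicate 1 left out, 0.0383 with FP-low replicate 4 left out and 0.0214 with adenoma replicate 1 left out, but 0.322 with adenoma replicate 2 left out. A second probe set for Me1 gave 1.74 ± 0.49 (adjusted p = 0.173). The enzymes that build the chain stayed within 0.25 of the normal mean: Fasn differed by -0.07 ± 0.21, Acaca by 0.15 ± 0.26, Acly by -0.03 ± 0.16 and Acacb by -0.23 ± 0.19.

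Other desaturases and the elongases gave no call in adenomas. Fads1 differed by 0.18 ± 0.25, Fads2 by -0.13 ± 0.35 and Fads3 by -0.08 ± 0.16. All 4 elongases had a higher mean in adenomas with a median of 0.58, which became 0.15 with 3 of 4 higher once FP-high replicate 1 was left out. Elovl5, which elongates polyunsaturated chains, was at 6.07, 5.57 and 6.09 in adenomas, at 5.59, 4.28, 5.90 and 4.37 in FP-high and at 4.34 to 6.97 (median 5.14) in FP-low. The adenomas lay inside the FP-low range, and the difference was 0.74 ± 0.48 (adjusted p = 0.583). Elovl1, Elovl6 and Elovl7 differed by 0.52 ± 0.71, 0.12 ± 0.38 and 0.64 ± 0.52.

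Of the 13 fits that each left out 1 array, Cyp51, Hsd17b7 and Pparg were each called in 5, and Scd1 in 11. Where leaving out a normal array ended a call of Cyp51, Hsd17b7 or Pparg, the adjusted p rose to 0.0617 at most. Leaving out an adenoma array took it up to 0.250. For Cyp51 the adjusted p was 0.244 without adenoma replicate 2, 0.128 without adenoma replicate 3, 0.0526 and 0.0527 without FP-high replicates 2 and 4, and 0.0617, 0.0544, 0.0565 and 0.0566 without FP-low replicates 2, 3, 5 and 6. For Hsd17b7 it was 0.113, 0.218 and 0.0622 without adenoma replicates 1, 2 and 3, 0.0515 and 0.0516 without FP-high replicates 2 and 4, and 0.0517, 0.0542 and 0.0509 without FP-low replicates 1, 2 and 4. For Pparg it was 0.250, 0.102 and 0.0756 without adenoma replicates 1, 2 and 3, 0.0514 and 0.0561 without FP-high replicates 3 and 4, and 0.0558, 0.0545 and 0.0525 without FP-low replicates 1, 2 and 6. Over all 13 single omissions the differences ran from 0.80 to 1.15 for Cyp51, 0.83 to 1.07 for Hsd17b7 and 1.09 to 1.39 for Pparg, in the same direction throughout.

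High Xist was found in all 3 adenoma arrays and in 2 of the 10 normal arrays, 1 in each normal group. Adenoma and Xist level were therefore largely confounded and cannot be fully told apart. Among arrays of high Xist, Scd1 was at 4.53 to 6.72 in the adenomas, 3.08 in FP-high replicate 4 and 3.29 in FP-low replicate 6. The corresponding normal values were 5.23 and 5.52 for Pparg, 5.27 and 5.92 for Hsd17b7 and 6.07 and 6.84 for Cyp51, each below all 3 adenomas. With high or low Xist as a covariate, chosen after seeing the data, none of the 4 passed, with adjusted p = 0.137 for Scd1, 0.212 for Pparg, 0.459 for Hsd17b7 and 0.411 for Cyp51. The differences in that fit were 2.48, 1.49, 0.90 and 0.96.

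The adenoma difference was next taken against each normal group alone. These comparisons share the adenoma arrays, so they are not independent of each other. Against FP-low, Scd1 was the 1 gene called (2.30 ± 0.39, adjusted p = 0.0173), beside 0.534% of all probe sets called upwards. Its adjusted p was 0.0775 and 0.0987 when adenoma replicates 1 and 2 were left out. Without adenoma replicate 1 Me1 was called in its place (1.99, adjusted p = 0.0292), without adenoma replicate 2 no gene of the set was called, and without FP-low replicate 4 Pparg was called as well (1.28, adjusted p = 0.0483). Me1 differed by 1.56 ± 0.35 (adjusted p = 0.0921), Pparg by 1.15 ± 0.27 (0.105), Hsd17b7 by 0.75 ± 0.20 (0.180) and Cyp51 by 0.52 ± 0.20 (0.524). The median over the 36 genes was -0.05, with 17 higher and 19 lower, against -0.06 over all probe sets. Calls over all probe sets were 125 higher and 4 lower, and 122 and 36 after quantile normalization. They were 250 and 120 without FP-high replicate 1, which enters this comparison through the shared estimate of spread. Scd1, Hsd17b7 and Pparg had all adenoma arrays above all FP-low arrays, which held for 3.67% of all probe sets.

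Against FP-high, the same 4 genes were called as against the normal average, beside 0.748% of all probe sets called upwards. Cyp51 differed by 1.40 ± 0.22 (adjusted p = 0.0104), Hsd17b7 by 1.20 ± 0.22 (0.0225), Scd1 by 2.30 ± 0.42 (0.0239) and Pparg by 1.42 ± 0.29 (0.0413). With the replicate number as a block, a fit described under the processing of the data, the adjusted p were 0.108, 0.139, 0.0876 and 0.174 in the same order, and no gene of the set was called. Without FP-high replicate 1 Pparg was at 0.0604 and the other 3 stayed called, beside 0.910% of all probe sets called upwards. Adenoma replicate 2 was the array whose omission ended all 4 calls, with adjusted p = 0.0573 for Cyp51, 0.122 for Hsd17b7, 0.106 for Scd1 and 0.105 for Pparg. The adjusted p of Scd1 was also past 0.05 at 0.0591 and 0.0551 without FP-high replicates 2 and 4 and at 0.0921 without adenoma replicate 1. That of Hsd17b7 was 0.0540 without FP-high replicate 2 and 0.0748 without adenoma replicate 1. That of Pparg was 0.0631 and 0.0844 without FP-high replicates 3 and 4, 0.213 and 0.0946 without adenoma replicates 1 and 3, and 0.0631 to 0.0686 without FP-low replicates 1, 2, 5 or 6. In 10 genes every adenoma array lay above every FP-high array, an order shown by 6.74% of all probe sets; they were the 4 called genes with Me1, Scd2, Fads1, Idi1, Sqle and Sc5d. The median over the set was 0.51 with 29 of 36 higher, against -0.11 over all probe sets, and 0.21 with 21 of 36 higher without FP-high replicate 1.

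Genes around both pathways, in lists of 13, 20, 9 and 17 measured genes apart from the 36, gave 1 call. It was Hacd2, a dehydratase of the elongation cycle, higher in adenomas than in FP-high by 2.22 ± 0.46 (adjusted p = 0.0499). In that comparison 0.748% of all probe sets were called upwards. Without FP-high replicate 1 Hacd2 differed by 1.66 (adjusted p = 0.00409), beside 0.910% of all probe sets called upwards. Against the normal average Hacd2 differed by 1.46 ± 0.40 (adjusted p = 0.153) and between FP-high and FP-low by -1.52 ± 0.39 (adjusted p = 0.232). It belongs to a list of 20 measured genes of fatty acid supply with a median of 0.09 in FP-high against FP-low and -0.02 in adenomas against normal. In that list Acsl4, an acyl-CoA synthetase for arachidonic acid, differed by 1.29 ± 0.35 in adenomas (adjusted p = 0.146) and by 1.45 ± 0.37 against FP-low, Hsd17b12, another enzyme of the elongation cycle, by -1.21 ± 0.33 in FP-high against FP-low (adjusted p = 0.257). Mlxipl, the carbohydrate-sensing factor ChREBP, differed by -0.69 ± 0.27 between adenomas and FP-low, and Hacd1 by 1.31 ± 0.45 between adenomas and FP-high.

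Of 13 other sterol and isoprenoid genes, 10 were lower on average in FP-high than in FP-low (median -0.30) and 7 were higher in adenomas than in normal epithelium (median 0.14), with no call. Lbr, a sterol reductase of the nuclear envelope, differed by -1.50 ± 0.43 in FP-high against FP-low (adjusted p = 0.263) and by -1.20 ± 0.47 in adenomas against FP-low. Ggps1, which makes geranylgeranyl diphosphate, differed by -0.93 ± 0.36 in FP-high against FP-low and by 0.91 ± 0.43 in adenomas against FP-high. In adenomas against normal, Insig2 differed by 1.44 ± 0.56 (adjusted p = 0.375) and Npc1, which exports cholesterol from lysosomes, by 0.55 ± 0.25 (adjusted p = 0.463). Without FP-high replicate 1 the medians were -0.10 and -0.09.

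Genes of sterol efflux, the liver X receptors and fatty acid oxidation were not called either. Among 9 genes of sterol efflux and the liver X receptors, the medians were 0.13 in FP-high against FP-low and -0.03 in adenomas against normal. Nr1h3, which encodes a liver X receptor, differed by 0.60 ± 0.16 in FP-high (adjusted p = 0.236) and by -0.39 ± 0.16 in adenomas (adjusted p = 0.410). The exporters Abca1 and Abcg8 differed by 0.33 ± 0.17 in FP-high and by -0.65 ± 0.24 in adenomas, and Abcg1 by -0.26 ± 0.14 in adenomas against FP-low. Among 17 genes of fatty acid oxidation and ketone formation, 13 were lower in FP-high (median -0.32), but 14 were higher without FP-high replicate 1 (median 0.11). In adenomas against normal 10 of the 17 were lower (median -0.17; without that array 13, median -0.42). Bdh1, a ketone body dehydrogenase, differed by -0.85 ± 0.24 (adjusted p = 0.154), Acadl by 0.77 ± 0.44 in adenomas and by -0.80 ± 0.43 in FP-high, and Pdk4, a kinase that spares glucose, by 0.45 ± 0.24 in FP-high and by 0.51 ± 0.26 in adenomas against FP-low.

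Among the marker genes of cell types, in lists of 4 to 11 measured genes, 3 were called higher in adenomas and none lower. Over all tested probe sets the shares were 0.884% and 0.0256%. Lgr5, a marker of crypt stem cells, rose by 1.62 ± 0.33 (adjusted p = 0.0417), Dcn, a fibroblast gene, by 2.36 ± 0.45 (adjusted p = 0.0277) and Ptprc, the pan-leukocyte antigen, by 0.79 ± 0.16 (adjusted p = 0.0393). As whole lists, 5 stem cell genes had mean levels of 6.10 to 6.79 in adenomas, 4.94 to 7.02 in FP-high and 6.62 to 6.97 in FP-low. Of these, 3 had a higher mean in adenomas than in normal epithelium (median 0.05), or 2 without FP-high replicate 1 (median -0.12). The 6 fibroblast genes were at 4.42 to 5.19 in adenomas, 4.37 to 4.57 in FP-high and 4.28 to 4.72 in FP-low. In adenomas 3 of these 6 had a higher mean than in normal epithelium (median 0.01). The 6 T cell genes were at 4.22 to 4.62 in adenomas, 4.38 to 5.37 in FP-high and 4.01 to 4.64 in FP-low, and 5 of the 6 were lower on average in adenomas than in normal epithelium. Of 5 Paneth cell markers 4 were lower in adenomas, with a median of -1.62 and no call, and all 5 were lower than in FP-low, with a median of -2.37. Their list means were 8.46 to 10.3 in adenomas, 7.20 to 11.5 in FP-high and 10.6 to 11.7 in FP-low. Of 10 enterocyte markers 9 were lower in adenomas than in FP-high (median -0.98) and 5 lower than in FP-low (median 0.06). Of 11 markers of dividing cells 10 were higher in adenomas than in FP-high (median 0.84) and 11 lower than in FP-low (median -0.36). Without FP-high replicate 1 the medians against FP-high were -1.45 and 0.59. With FP-high replicate 1 left out, the Paneth cell genes Lyz1 and Defa24, the stem cell gene Olfm4 and the macrophage gene Lyz2 were also called lower in adenomas, at -2.23, -1.10, -3.12 and -2.15 (adjusted p = 0.0248, 0.0237, 0.0342 and 0.0264). The epithelial gene Krt18 and the endothelial genes Cdh5 and Emcn were then called higher, at 1.08, 0.86 and 0.75 (adjusted p = 0.0344, 0.0140 and 0.0235). Over all probe sets 1.47% were then called higher, and 144 of 23410 lower. In that fit 4 of 10 epithelial genes (median -0.11), 2 of 5 endothelial genes (median -0.15) and 3 of 6 macrophage genes (median -0.02) had a higher mean in adenomas. All 5 Paneth cell genes had a lower one. The part of these cell types in the levels of Scd1, Pparg, Cyp51 and Hsd17b7 was not tested.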

How the data were processed

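Affymetrix Mouse Gene 1.0 ST arrays of 13 samples were used: 4 FP-high, 6 FP-low and 3 adenoma. The authors deposited 35556 probe sets as log2 levels, made with Affymetrix Expression Console and Transcriptome Analysis Console, per the submitters' processing notes. The log2 scale was read from the values. How background was corrected and values were normalized and summarised, and with which versions, is not given in the sources used here. Precision is limited by how many arrays there are.

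Gene names came from GEO's annotation of the array platform: 21789 had 1 symbol, 1621 several (tested, never named) and 12146 none (left out). The 23410 with a symbol entered 1 two-sided limma fit (lmFit, then eBayes; limma 3.58.1, R 4.3.3) on all 13 arrays in 3 groups, without covariate, filter or further normalization. Benjamini-Hochberg adjustment ran over all 23410, and an adjusted p under 0.05 is a call. The 4 comparisons were FP-high minus FP-low, and adenoma minus the average of both normal means, minus FP-low and minus FP-high. The fit was tested on simulated data with independent noise of the same SD in every array. That test does not cover an array like FP-high replicate 1.

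The genes and lists were chosen with earlier results of these data known, so lists are described by counts and medians. Values in every array were given for called genes, for genes whose adenomas lay apart from all normal arrays or whose FP-high arrays lay apart from FP-low, and for the gene of smallest p in each arm; further values were chosen after they were seen. From each neighbouring list, called genes and the 2 of smallest p per comparison were named.

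Groups share replicate numbers. Deviations from the group mean correlated between same-numbered FP-high and adenoma arrays at 0.233, 0.102 and 0.220. All 3 lay over the bound of 0.1, which did not hold throughout with FP-low. Correlations of different-numbered arrays are not given here. The values for FP-high and adenoma are why a blocked fit on the replicate number stands beside adenoma minus FP-high. It also stands beside adenoma minus normal, in which FP-high is a part. Between same-numbered FP-low and adenoma arrays the correlations were -0.116, 0.061 and -0.062. The labels do not state a pairing. Xist was low in replicates 1 to 3 of FP-high and FP-low and high in adenoma replicates 1 to 3. Same-numbered adenoma and normal arrays therefore differed in Xist. What the shared numbers mean was not tested.

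Alternatives were quantile normalization, subtraction of array medians, brighter or all probe sets, the mean of a gene's probe sets, array weights, a trended robust prior, the replicate block, compared groups alone, leaving out each array and, added after seeing the data, Xist as a covariate and counts without FP-high replicate 1.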

Additional observations from a re-analysis of the deposited data

Results flagged for a closer look

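In 9 instances 1 array of a normal group lay far from the rest of its group for a gene of the set, by Dixon's criterion on the gap to the nearest array, out of 72 groups examined; chance marks about 1 in 20. FP-high replicate 1 accounted for 7 of them. In that array Acacb was the highest of its group at a log2 level of 5.69, and Elovl1 (4.17), Elovl7 (6.24), Mvd (4.71), Msmo1 (5.63), Srebf1 (4.67) and Scap (4.96) were the lowest. In the FP-low group Elovl7 was lowest in replicate 6 at 8.06 and Msmo1 lowest in replicate 5 at 6.75.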

How the results depend on the processing

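The median over the 36 genes ran from -0.56 to -0.19 over the alternatives for FP-high minus FP-low, from 0.01 to 0.22 for adenoma minus normal, from -0.07 to 0.02 for adenoma minus FP-low and from 0.21 to 0.70 for adenoma minus FP-high. Quantile normalization moved the set's median to -0.27 for FP-high minus FP-low and to 0.09 for adenoma minus normal; the genes that changed sign under it were Fads3, Elovl6 and Mvk, and Acaca, Elovl6 and Srebf2. Subtracting array medians changed the sign of Me1 and Fads3 in FP-high minus FP-low. The counts of called genes depended more on the fit. Leaving out 1 array at a time, 0 to 2 genes were called for FP-high minus FP-low (2 without FP-high replicate 3), 0 to 5 for adenoma minus normal, 0 to 2 for adenoma minus FP-low and 0 to 4 for adenoma minus FP-high. With the replicate number as a block, and with Xist as a covariate, 0 genes were called in adenoma minus normal, minus FP-low and minus FP-high; in the blocked fit Scd1 differed by 2.11 from normal (adjusted p = 0.0665), and the values of the other called genes stand in the report. Adenoma minus FP-low also gave 0 calls when only brighter probe sets were tested, which leaves out the dim probe set of Scd1, and 5 with array weights. Adenoma minus FP-high gave 0 with the compared groups alone, a fit of fewer arrays. For Pparg in that comparison, quantile normalization gave an adjusted p of 0.0639 and testing all deposited probe sets gave 0.0620. For Cyp51 in adenoma minus normal, subtracting array medians gave 0.0575 and a trended robust prior 0.115. The cause was not tested.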
